A study of Mus musculus with 13 samples.

Results

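The genes of G2 phase and mitosis described here are 46 mouse genes, taken by name from a list that was drawn up with earlier results of these data known. All 46 had exactly 1 row in each of the 3 count tables, among 22048 genes that the tables share, and all 46 passed the low-count filter in every fit. They were read in 13 RNA sequencing libraries of the regulatory T cell (Treg) lineage. The cells came from C57BL6/J mice that carried the Foxp3 reporter Foxp3rfp and were either cRel+/+ (wild type) or cRel-/- (knockout). c-Rel is the NF-kB subunit encoded by Rel. By the labels, pre-Treg cells, the thymic precursors, gave 2 wild-type and 3 knockout libraries. De novo Treg cells of the thymus gave 2 and 2, and splenic cells labelled tTreg gave 2 and 2. The mice's age, sex and number, and the cells in which c-Rel was deleted, are not given there. No label says that libraries came from separate animals, so p-values measure the spread between libraries, which may be technical.

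Dividing cells switch these genes on together in G2. Cyclin B with its kinase CDK1 starts mitosis, condensin compacts the chromosomes, kinetochores attach them to the spindle, and the spindle assembly checkpoint holds anaphase until every chromosome is attached. CDC20 and the anaphase-promoting complex then destroy cyclin B and securin, and the cell is cut into its daughters by cytokinesis. The transcripts are known to be repressed in resting cells by the DREAM complex and induced in cycling cells by B-MYB and FOXM1 through the MuvB core, which binds an element called the CHR, often near CCAAT boxes bound by NF-Y. Tregs are known to be among the more actively cycling T cells of a resting mouse.

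The promoters show what the genes have in common beyond their role. RefSeq windows on GRCm38.p6, from 250 bases before to 50 bases after a gene's start, were matched for 38 members (40 windows). The CHR letters TTTGAA, searched on both strands, were in 31 of 40 member windows (77.5%) and in 17.9% of all 32851 windows of that length. The variant TTCGAA was in 3 member windows (7.5%) and in 1.56% of all windows. CCAAT, on both strands, was in 31 member windows (77.5%) against 37.4% of all. At least 2 CCAAT letters stood in 20 (50%) against 11.7%, and CCAAT with either CHR form in 29 (72.5%) against 7.53%. A match to one of the 3 motifs is never a match to another, though neighbouring matches may share bases. A match is a description of the letters and not a binding site. No window was matched for Tpx2, Pbk, Kif20a, Ccna2, Cdc25c, Smc4, Incenp and Aurkb.

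The 250 bases before the start are printed for 4 members whose levels fell in the splenic knockout (Cdc20, Cdk1, Ccnb2, Plk1) and for Pttg1, whose level did not follow the others. They run 5′ to 3′ on the gene's strand, with TTTGAA and CCAAT in capitals; ATTGG is CCAAT read on the other strand. The positions on GRCm38.p6 are chr4:118437344-118437593 (minus strand) for Cdc20, chr10:69352913-69353162 (minus) for Cdk1, chr9:70421555-70421804 (minus) for Ccnb2, chr7:122159185-122159434 (plus) for Plk1 and chr11:43425982-43426231 (minus) for Pttg1.
Cdc20: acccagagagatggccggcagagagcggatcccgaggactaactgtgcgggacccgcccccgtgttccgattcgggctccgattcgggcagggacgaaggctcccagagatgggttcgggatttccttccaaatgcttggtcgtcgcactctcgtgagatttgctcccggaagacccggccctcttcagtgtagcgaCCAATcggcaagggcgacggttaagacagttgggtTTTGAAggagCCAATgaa
Cdk1: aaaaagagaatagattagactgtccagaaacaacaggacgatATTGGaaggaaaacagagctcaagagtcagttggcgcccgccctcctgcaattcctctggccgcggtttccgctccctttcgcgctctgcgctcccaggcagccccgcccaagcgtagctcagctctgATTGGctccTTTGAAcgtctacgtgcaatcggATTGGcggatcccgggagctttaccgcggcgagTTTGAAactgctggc
Ccnb2: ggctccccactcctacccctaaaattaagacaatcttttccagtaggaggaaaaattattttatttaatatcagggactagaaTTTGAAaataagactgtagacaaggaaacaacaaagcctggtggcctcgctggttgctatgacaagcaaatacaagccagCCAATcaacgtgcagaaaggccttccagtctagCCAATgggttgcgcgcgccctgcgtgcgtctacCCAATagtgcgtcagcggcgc
Plk1: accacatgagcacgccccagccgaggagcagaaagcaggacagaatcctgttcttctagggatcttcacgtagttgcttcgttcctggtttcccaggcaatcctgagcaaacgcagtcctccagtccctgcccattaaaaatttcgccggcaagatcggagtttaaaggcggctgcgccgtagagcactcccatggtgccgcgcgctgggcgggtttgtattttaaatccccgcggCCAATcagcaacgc
Pttg1: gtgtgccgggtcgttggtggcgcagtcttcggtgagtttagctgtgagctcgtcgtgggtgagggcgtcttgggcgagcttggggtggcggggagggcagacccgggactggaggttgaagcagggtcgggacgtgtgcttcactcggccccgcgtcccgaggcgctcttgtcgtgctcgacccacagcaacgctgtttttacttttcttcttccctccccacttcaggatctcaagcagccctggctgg
Cdk1 carried 2 CHR and 3 CCAAT matches, Ccnb2 1 and 3, and Cdc20 1 and 2. Plk1 had 1 CCAAT in this stretch. Plk1 and Ccnb2 each had 1 further TTTGAA in the 50 bases after the start, which are counted in the shares above and not printed. Pttg1 had 0 matches, and its RefSeq start lies 270 bases inside the first base that the count table gives for the gene. It was 1 of 6 members with a window and 0 matches. The others were Birc5, Mad2l1, Ncaph, Nuf2 and Nusap1, of which Mad2l1 and Ncaph fell in the splenic knockout, so having no match does not set Pttg1 apart.

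Library totals ran from 13656304 to 35114430 counts, and 3 counts corresponded to 0.0854 to 0.22 CPM, the unit of counts scaled by library size used for every level here. The spread between libraries was taken as a biological coefficient of variation over all genes tested. It was 0.284 for pre-Tregs against 0.0939 for de novo and 0.131 for splenic cells. By that measure a given difference was least precise in pre-Tregs. Rel itself stood at 103 and 99.2 CPM in wild-type and 54.3, 52.3 and 65.8 CPM in knockout pre-Tregs. It stood at 104 and 102 against 92.2 and 102 CPM in de novo Tregs, and at 47.3 and 56.7 against 43.5 and 46.1 CPM in splenic Tregs. Gene counts do not say which exons were read, so these values do not check the genotype labels. Each of the 9 T cell and Treg markers, Foxp3 included, was read in every group, but not at 1 level. Foxp3 was at 19.6 to 101 CPM in the pre-Treg libraries and at 683 to 924 CPM in the others. Ikzf2 read 428 and 581 CPM in wild-type and 188, 111 and 165 CPM in knockout pre-Tregs, where 0 of the 9 markers were called.

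**Figure D1:**
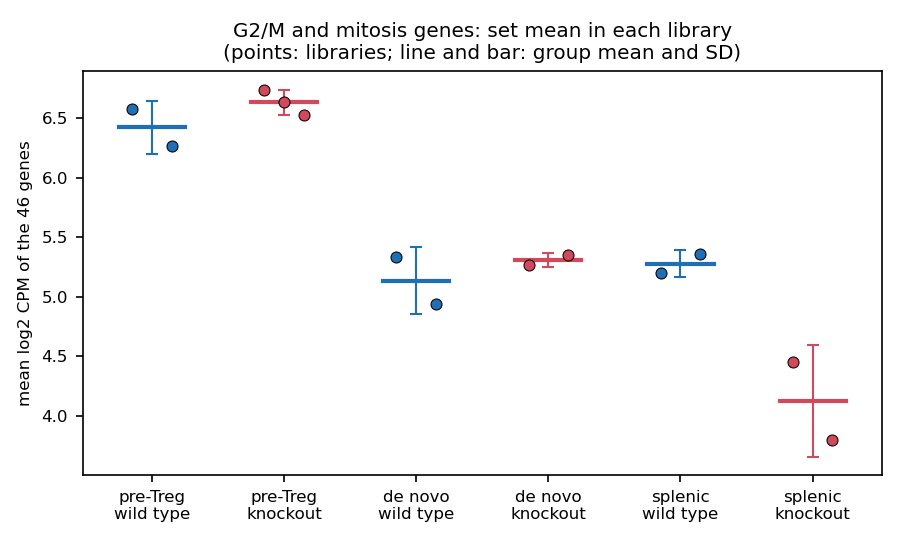
Mean log2 CPM of the 46 genes in each of the 13 libraries (points), with the group mean and SD (line and bar), by stage and genotype. The pre-Treg libraries lie between 6.27 and 6.74, the de novo and splenic wild-type libraries between 4.94 and 5.36, and the splenic knockout libraries at 4.45 and 3.79.

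As a set, the mitosis genes were highest in pre-Tregs, lower in de novo Tregs, and lowest in splenic knockout Tregs, on 1 scale computed across the 3 tables. The set mean, the average log2 CPM of the 46 genes, was 6.58 and 6.27 in the wild-type and 6.74, 6.63 and 6.53 in the knockout pre-Treg libraries. It was 5.33 and 4.94 against 5.26 and 5.35 in de novo Tregs. In splenic Tregs it was 5.20 and 5.36 in wild type and 4.45 and 3.79 in the knockout. The plot of set means shows the genotypes interleaved in de novo Tregs and apart in the spleen. Group means were 6.42 (SD 0.219, n = 2) and 6.63 (SD 0.106, n = 3) in pre-Tregs, 5.13 (SD 0.280, n = 2) and 5.30 (SD 0.0589, n = 2) in de novo Tregs, and 5.28 (SD 0.113, n = 2) and 4.12 (SD 0.467, n = 2) in splenic Tregs. The knockout minus wild-type difference was 0.21, 0.17 and −1.15 in the 3 stages. The last is a fold of 0.450. The mean difference over all genes tested was 0.056, −0.033 and −0.011. In shares of all counts, the 46 genes took 0.256% and 0.279% of the splenic wild-type libraries and 0.187% and 0.156% of the splenic knockout libraries. Bulk RNA cannot separate fewer cycling cells from less of these transcripts in each cell.

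**Figure D2:**
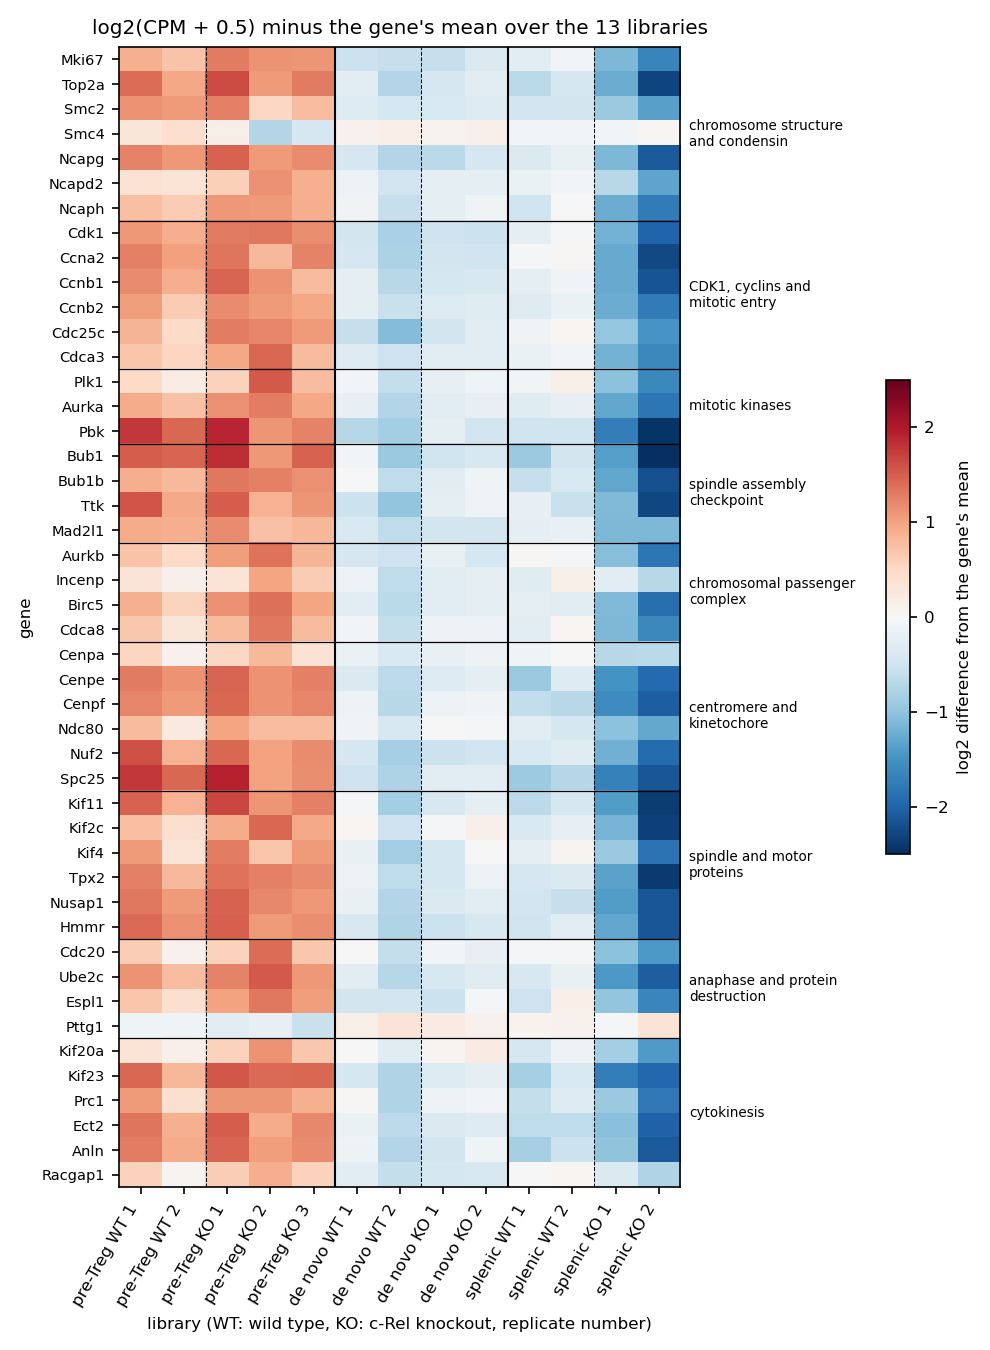
Each row is 1 of the 46 genes, grouped by role, and each column 1 of the 13 libraries; colour is log2(CPM + 0.5) minus the gene's mean over the libraries. Nearly all rows are red in pre-Tregs and deepest blue in the 2 splenic knockout libraries, while Smc4 and Pttg1 do not follow this pattern.

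In splenic Tregs without c-Rel, 20 of the 46 genes fell and 0 rose (adjusted p under 0.05). Of all 12264 genes tested there, 0.758% were called lower. The log2 fold changes of the 46 genes ran from −1.69 to 0.069, with a median of −1.22, against a median of 0.00055 over all genes tested. Of the 46, 44 lay below 0 (49.9% of all genes did) and 33 were at least 2-fold lower (410 of the 12264). At an unadjusted p under 0.05, 42 were lower (7.04% of all genes). In 43 of 46, both knockout libraries lay below both wild-type libraries, which was so for 23.3% of all genes. The set is one that earlier results of these data had already shown to be low in this comparison. The 20 calls became 35 and 32 without wild-type replicate 1 or 2, and 44 and 41 without knockout replicate 1 or 2. In each of these fits 1 group holds 1 library, which is assumed to vary like the other group. The 20 calls became 40 with DESeq2 and 41 without the low-count filter. How many of all genes were called in the fits above is not given, so these larger counts are not set against other genes. With the spread shared over all 13 libraries 17 genes were called, where 0.391% of all genes were called lower.

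Of the 6 genes of CDK1, cyclins and mitotic entry, 5 fell, with a median log2 fold change of −1.37 over the 6. Cdk1, the kinase that drives entry into mitosis, was at 34.7 and 39.0 CPM in the wild-type and 17.5 and 9.74 CPM in the knockout libraries (log2 fold change −1.43, SE 0.25, adjusted p = 0.0446). Ccnb1, which encodes its partner cyclin B1, was at 25.0 and 27.4 against 11.9 and 6.20 CPM (−1.52, SE 0.27, adjusted p = 0.0469). Ccnb2, the cyclin B2 gene, was at 46.1 and 52.0 against 24.3 and 16.9 CPM (−1.25, SE 0.18, adjusted p = 0.0298). Cdca3, whose product promotes destruction of the CDK1 inhibitor WEE1, was at 38.1 and 40.8 against 18.6 and 13.7 CPM (−1.29, SE 0.17, adjusted p = 0.0208). In each of these 4 genes the groups were well apart and the knockout libraries differed more from each other, in ratio, than the wild-type libraries did. Ccna2, the cyclin A2 gene, had the largest fall of all 46 (−1.69, SE 0.28, adjusted p = 0.0366). Cdc25c, which encodes the phosphatase that activates CDK1, had a log2 fold change of −1.30 (adjusted p = 0.0663).

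All 3 mitotic kinases fell, with a median of −1.36. Plk1, a kinase needed for centrosome maturation and mitotic progression, read 45.9 and 53.4 CPM in wild type and 23.3 and 15.4 CPM in the knockout (log2 fold change −1.36, SE 0.20, adjusted p = 0.0298). Aurka, the spindle pole kinase Aurora A, read 26.8 and 28.6 against 13.2 and 9.07 CPM (−1.31, SE 0.19, adjusted p = 0.0298). Pbk, a kinase of dividing cells, read 16.0 and 15.9 against 6.53 and 3.76 CPM (−1.63, SE 0.26, adjusted p = 0.0349). The 2 wild-type libraries agree closely for Pbk, and both knockout libraries lie far below them. Plk1 was not called with the shared spread (adjusted p = 0.0709).

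The chromosomal passenger complex, which corrects faulty kinetochore attachments and steers cytokinesis, had 2 of 4 genes called. Aurkb, its kinase Aurora B, stood at 48.1 and 46.6 CPM against 22.5 and 13.1 CPM (log2 fold change −1.41, SE 0.23, adjusted p = 0.0356). Cdca8, which encodes borealin, stood at 55.7 and 68.8 against 30.3 and 21.4 CPM (−1.27, SE 0.19, adjusted p = 0.0298). Birc5, which encodes survivin, stood at 51.8 and 49.7 against 27.9 and 15.8 CPM. Its groups did not overlap, but its log2 fold change of −1.21 (SE 0.24) narrowly missed the threshold (adjusted p = 0.0572). Incenp, the scaffold of the complex, overlapped between genotypes, at 72.6 and 99.1 against 74.8 and 55.1 CPM (−0.40, SE 0.19, adjusted p = 0.398). Within 1 complex the kinase gene and the scaffold gene had unlike values, and their difference was not tested.

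At the kinetochore and the checkpoint, 4 of 6 and 1 of 4 genes were called. Mad2l1, the checkpoint protein MAD2 that inhibits CDC20, was at 40.8 and 42.6 CPM in wild type and 21.7 and 21.9 CPM in the knockout, the tightest of the checkpoint genes (log2 fold change −0.93, SE 0.12, adjusted p = 0.0196). Bub1b, which encodes BUBR1, and the checkpoint kinase genes Bub1 and Ttk had log2 fold changes of −1.22, −1.26 and −1.31 with adjusted p of 0.0727, 0.192 and 0.176. Their standard errors (0.26, 0.39 and 0.39) were larger, and their knockout libraries lay further apart, at 35.3 and 18.6 CPM for Bub1b and 5.59 and 2.22 CPM for Ttk. Of the centromere and kinetochore genes, Cenpf (−1.18, adjusted p = 0.0352), Spc25 (−1.13, adjusted p = 0.0457), Ndc80 (−0.81, adjusted p = 0.0496) and Cenpa (−0.64, adjusted p = 0.0401) fell. Cenpa encodes the histone that marks the centromere, and Ndc80 and Spc25 belong to the complex that grips microtubules. Nuf2, of that same complex, was at −1.22 (adjusted p = 0.0612), and the kinetochore motor gene Cenpe at −1.14 (adjusted p = 0.0691). Cenpa was called in 9, Ndc80 in 10 and Spc25 in 11 of 12 alternative settings; without wild-type replicate 2 the adjusted p of Cenpa was 0.271, and without wild-type replicate 1 that of Ndc80 was 0.155.

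For anaphase and protein destruction 2 of 4 genes were called. Cdc20, the activator of the anaphase-promoting complex, read 69.9 and 69.7 CPM in wild type and 34.8 and 26.2 CPM in the knockout (log2 fold change −1.19, SE 0.15, adjusted p = 0.0196). Ube2c, the E2 enzyme of that complex, read 45.1 and 51.8 against 21.7 and 13.9 CPM (−1.44, SE 0.21, adjusted p = 0.0298). Both were clearly separated by genotype. Cdc20 was not called with the shared spread (adjusted p = 0.0905). Espl1, the separase gene, was at −1.15 (SE 0.28, adjusted p = 0.105). Pttg1, which encodes securin, the protein that holds separase in check, read 64.8 and 66.0 against 59.3 and 77.9 CPM, so the wild-type libraries lay between the knockout libraries (0.069, SE 0.15, adjusted p = 0.883). The genes of securin and separase, an inhibitor and its target, had unlike values, and that difference was not tested either.

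Chromosome structure and condensin had 2 of 7 genes called. Mki67, which encodes the Ki-67 antigen that coats mitotic chromosomes, was at 83.0 and 94.9 CPM in wild type and 45.9 and 31.6 CPM in the knockout (log2 fold change −1.20, SE 0.18, adjusted p = 0.0315). It lies on chromosome 7 at 135689788 to 135716379 (GRCm38, minus strand). Top2a, the topoisomerase that disentangles sister chromatids, was at 124 and 146 against 83.5 and 39.9 CPM (−1.13, SE 0.29, adjusted p = 0.125). The knockout libraries of Top2a lie below the wild type but differ from each other about as much as the groups do. The condensin I genes Ncaph (−1.27, adjusted p = 0.0452), Ncapg (−1.29, adjusted p = 0.0824) and Ncapd2 (−0.86, adjusted p = 0.0747) had lower values. The ATPase genes shared by both condensins did not behave alike, with Smc2 at 54.8 and 55.3 against 40.0 and 29.3 CPM (−0.66, adjusted p = 0.0973) and Smc4 at 745 and 740 against 744 and 798 CPM (0.056, SE 0.083, adjusted p = 0.827). Per kilobase of exon, Smc4 was the highest of the 46 genes in every group, at 142 CPM per kilobase in wild-type and 148 in knockout splenic Tregs, where the medians of the set were 9.87 and 4.07.

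Spindle and motor genes had 0 of 6 called, although their median of −1.31 was close to the −1.37 of the CDK1 and cyclin genes. Their values ran from −1.22 (Nusap1) to −1.41 (Tpx2), each with an unadjusted p under 0.05, and Nusap1, a microtubule-bundling protein, came nearest to the threshold (adjusted p = 0.0519). Kif11, the motor that pushes the spindle poles apart, read 44.1 and 51.6 against 26.2 and 13.1 CPM (−1.28, SE 0.28, adjusted p = 0.0769). Kif2c, Kif4 and Hmmr were at −1.38, −1.29 and −1.32 (adjusted p = 0.104, 0.0815 and 0.0626). Of the 6 cytokinesis genes 1 was called, Kif23, a motor of the central spindle, at 21.5 and 29.4 against 11.2 and 9.55 CPM (−1.29, SE 0.19, adjusted p = 0.0308). Its partner Racgap1 was at −0.55 (adjusted p = 0.127). Kif20a, Prc1, Ect2 and Anln had log2 fold changes between −0.86 and −0.84, with adjusted p of 0.0868, 0.187, 0.237 and 0.358.

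**Figure D3:**
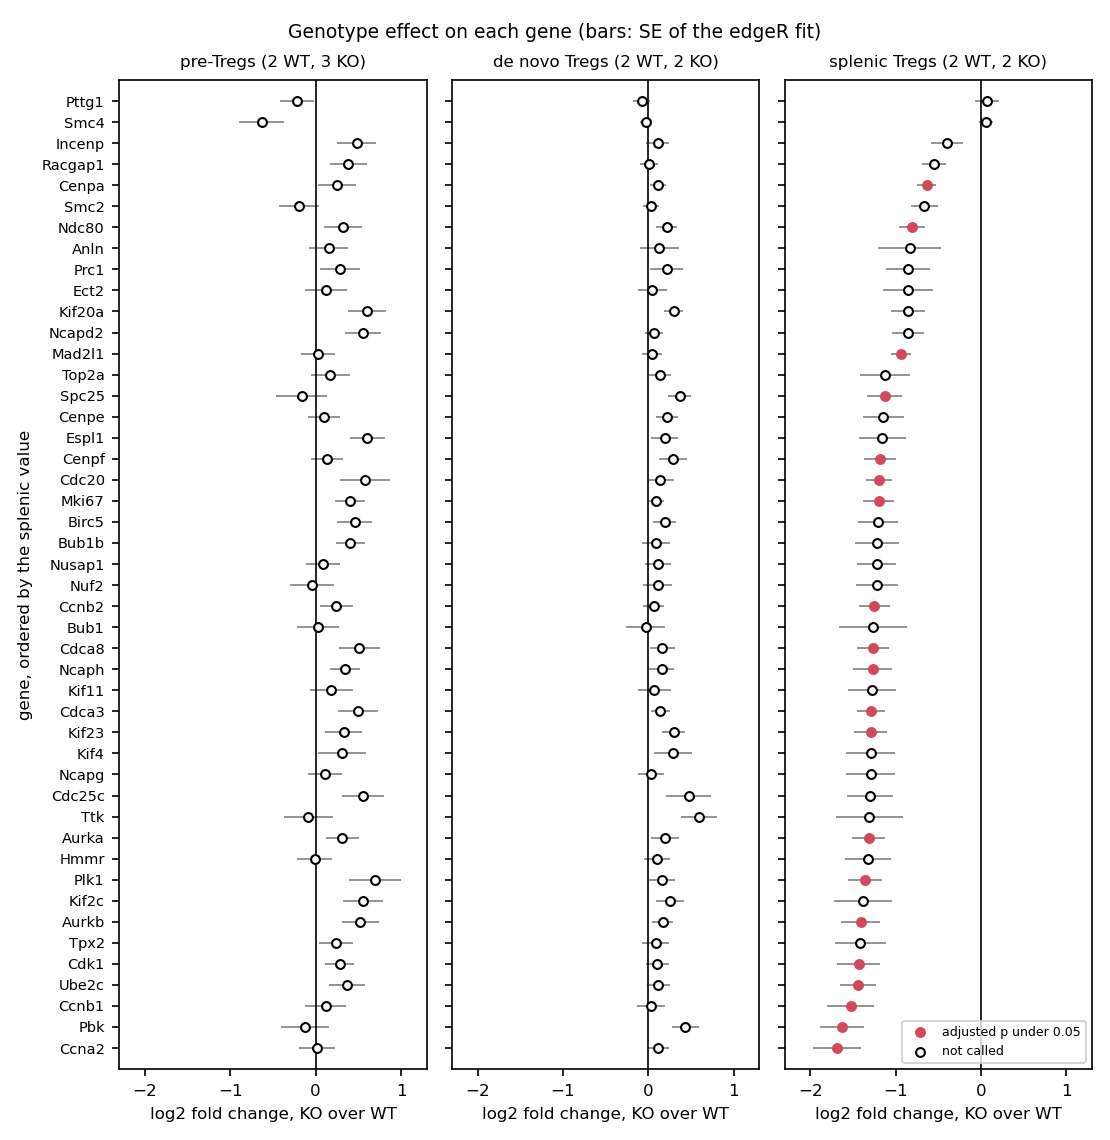
Log2 fold change of knockout over wild type for the 46 genes (rows, ordered by the splenic value) in the 3 stages, with the SE of the edgeR fit as bars and genes of adjusted p under 0.05 filled. In pre-Tregs and de novo Tregs 0 points are filled and most lie to the right of 0, while in splenic Tregs 20 are filled and 44 lie to the left.

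The 2 splenic knockout libraries did not agree on the level. Replicate 2 was lower than replicate 1 in 42 of the 46 genes, with a median log2 ratio of −0.63, against −0.00092 over all genes tested. Its S phase genes were lower too, with a median of −0.49. In the splenic wild-type pair the median log2 ratio was 0.16. The set mean difference between genotypes was −1.48 without knockout replicate 1 and −0.82 without knockout replicate 2, so the size of the fall depended on the library while its direction did not. Markers of other cells moved with genotype in the spleen. The 10 B cell and plasma cell markers summed to 42.9 and 52.6 CPM in wild type and 102 and 62.7 CPM in the knockout, and Cd79b rose (0.66, SE 0.11, adjusted p = 0.0435). The 12 myeloid and dendritic markers summed to 42.8 and 79.9 CPM in wild type and 30.2 and 6.14 CPM in the knockout, where Mpo, Elane and Cd14 were at 0 in both libraries and Mpo was called lower (adjusted p = 0.0356). The CD8 T and NK cell markers summed to 51.0 and 49.3 against 41.2 and 31.2 CPM. The immature thymocyte markers summed to 176 and 164 against 153 and 153 CPM, and Rag1, Rag2 and Ptcra were at 0 in all splenic libraries. The 9 thymic stroma markers summed to 258 and 233 against 312 and 282 CPM. Most of that was Pecam1 (226 and 191 against 266 and 234 CPM), which was read at 156 CPM or more in all 13 libraries. Krt5, Foxn1, Psmb11 and Pdgfra of that list were at 0 in all splenic libraries. The 10 erythroid and platelet markers summed to 4.50 and 26.2 against 21.3 and 2.93 CPM. Of the 9 T cell and Treg markers, which summed to at least 6038 CPM in each splenic library, Ctla4 rose (0.86, SE 0.11, adjusted p = 0.0196). The part of these cells in the lower mitosis genes was not tested.

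**Figure D4:**
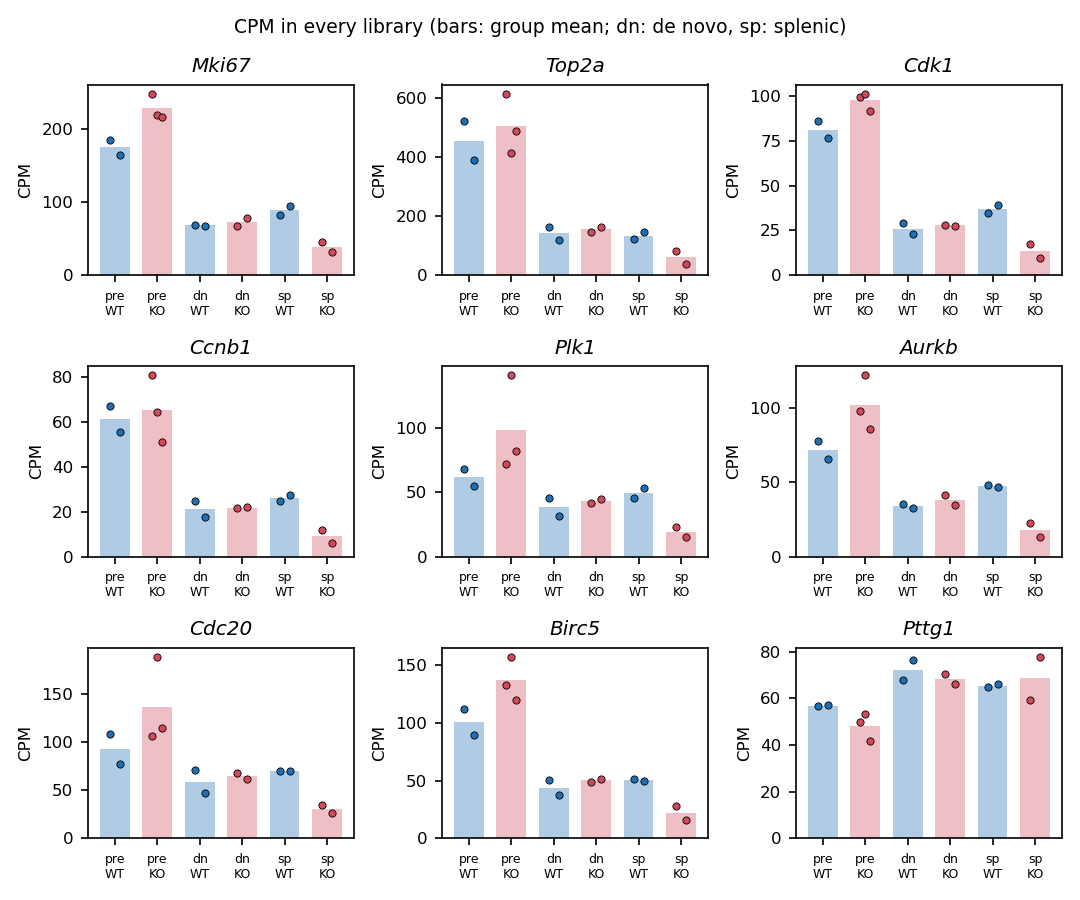
CPM of 8 of the mitosis genes and of Pttg1 in each library (points), with bars for the group mean, from 0, by stage (pre: pre-Treg, dn: de novo, sp: splenic) and genotype (WT, KO). For the 8 genes other than Pttg1 both splenic knockout points lie below both splenic wild-type points; for Pttg1 they lie on either side of them, at 59.3 and 77.9 CPM.

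In pre-Tregs 0 of the 46 genes were called, as were 0% of the 14746 genes tested. A positive log2 fold change was found for 38 of the 46 (53.5% of all genes), with a median of 0.27 against 0.032 over all genes. At an unadjusted p under 0.05, 6 were higher (3.61% of all genes) and 1 lower (2.96%). The 6 were Ncapd2, Bub1b, Aurkb, Kif2c, Espl1 and Kif20a, at 0.41 to 0.61, and the 1 was Smc4, at −0.63 (SE 0.26, adjusted p = 0.72). Of the 46, 17 were higher in all 3 knockout than in both wild-type libraries (13.3% of all genes), and 2 were lower in all (13.7%). The genes also shifted together within the wild-type pair. Replicate 2 was lower than replicate 1 in 44 of the 46, with a median log2 ratio of −0.30, against −0.015 over all genes tested. The counts above are therefore not 46 separate observations. DESeq2, limma-voom and all other alternative settings also called 0 members.

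The 8 genes followed through every comparison differed in how far the genotypes lay apart in pre-Tregs. Mki67 read 185 and 165 CPM in wild type and 248, 219 and 217 CPM in the knockout, with no overlap (log2 fold change 0.40, SE 0.18). Aurkb read 78.0 and 65.8 against 98.1, 122 and 85.8 CPM (0.52, SE 0.22), and Birc5 112 and 89.1 against 133, 157 and 120 CPM (0.46, SE 0.21). Cdk1 read 86.0 and 76.6 against 99.7, 101 and 91.5 CPM (0.28, SE 0.17). In these 4 genes each knockout library lay above both wild-type libraries. Plk1 read 68.2 and 54.9 against 71.8, 141 and 82.1 CPM (0.69, SE 0.31), and Cdc20 109 and 77.3 against 107, 190 and 115 CPM (0.58, SE 0.30). For both, knockout replicate 2, the deepest pre-Treg library at 29866696 counts, stood far above the others. Top2a, at 522 and 391 against 616, 416 and 491 CPM (0.17, SE 0.23), and Ccnb1, at 67.2 and 55.6 against 81.0, 64.7 and 51.2 CPM (0.12, SE 0.24), overlapped. Adjusted p lay between 0.72 and 0.887 for the 8. Smc4 ran the other way, at 961 and 1040 against 861, 472 and 580 CPM. The immature thymocyte markers summed to 483 and 619 CPM in wild-type and 1259, 468 and 843 CPM in knockout pre-Tregs. Both they and the set mean were highest in knockout replicate 1, but the other libraries did not keep the same order. The set mean was 6.58 and 6.27 in wild type and 6.74, 6.63 and 6.53 in the knockout. The myeloid and dendritic markers summed to 7.46 and 27.9 CPM in wild type and 78.7, 12.7 and 26.7 CPM in the knockout. Of the 9 tested, 8 had positive log2 fold changes and 7 were at least 2-fold higher, with a median of 1.46 and 0 called. The part of these cells in the pre-Treg values was not tested.

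De novo Tregs, the stage with the smallest spread over all genes tested, likewise had 0 of 46 genes called, where 6.46% of 11855 genes were. The set mean of the 46 genes did not share that small spread in wild type. Its SD was 0.280 in wild-type and 0.0589 in knockout de novo Tregs, against 0.219 and 0.106 in pre-Tregs. Positive log2 fold changes were found for 43 of the 46 (49.3% of all genes), with a median of 0.12, and 5 were higher at an unadjusted p under 0.05 (8.55% of all genes). These were Pbk, Ttk, Spc25, Kif20a and Kif23, at 0.30 to 0.59. Without overlap between libraries, 10 were higher (22.9% of all genes) and 0 lower (24.6%), so the counts were not above those of other genes. Mki67 read 69.1 and 67.2 CPM in wild type and 67.2 and 77.9 CPM in the knockout, Top2a 165 and 119 against 148 and 164 CPM, and Cdk1 29.2 and 22.9 against 28.2 and 27.8 CPM. The knockout values of Top2a and Cdk1 lay between the 2 wild-type values. Ccnb1 read 24.9 and 17.8 against 21.6 and 22.1 CPM, Plk1 45.7 and 31.6 against 41.8 and 44.5 CPM, and Cdc20 70.8 and 47.4 against 68.5 and 61.8 CPM. Aurkb read 35.2 and 32.7 against 41.7 and 34.5 CPM, and Birc5 50.4 and 37.4 against 49.2 and 51.0 CPM. The log2 fold changes of these 8 genes were 0.032 to 0.19 (adjusted p = 0.522 to 0.954). Wild-type replicate 2 was lower than replicate 1 in 43 of 46 genes (median log2 ratio −0.43). Without it the set mean difference was −0.028 in place of 0.17, and without wild-type replicate 1 it was 0.37 and 3 genes were called. limma-voom and DESeq2 called 0. How many of all genes were called without wild-type replicate 1 is not given. The 10 erythroid and platelet markers also set the wild-type libraries apart, at 113 CPM in replicate 1 and 3.84 CPM in replicate 2, against 1.93 and 2.63 CPM in the knockout. Of the markers of other cells, Hba-a1, Hbb-bs, Eomes and Ms4a1 were called lower and Cd79b, Epcam and Pecam1 higher in the de novo knockout. Epcam and Pecam1 are from the thymic stroma list, whose Krt5, Foxn1, Psmb11 and Pdgfra were at 0 in all de novo libraries. The part of other cells in the mitosis genes was not tested. Of the 9 T cell and Treg markers, Il2ra (0.44, adjusted p = 0.00465), Ctla4 (0.43, adjusted p = 0.00429) and Cd28 (0.32, adjusted p = 0.0298) also rose there.

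Over all stages, with stage as a covariate, 0 of the 46 genes were called, while 0.85% of 13058 genes were. At an unadjusted p under 0.05 there were 0 of the 46 and 1410 of the 13058. The log2 fold changes lay below 0 for 44 genes, with a median of −0.21, which averages the splenic values with small positive values in the thymus. DESeq2, limma-voom and all other settings tried called 0 as well.

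Whether the genotype effect itself differed between stages was tested with interaction terms. The joint test over the 3 stages called 2 of the 46 genes, Mki67 (adjusted p = 0.0423) and Cdca3 (adjusted p = 0.0477), where 0.161% of all genes were called. The splenic minus pre-Treg contrast called 8 genes, all with a lower genotype effect in the spleen, where 0.176% of all genes were called lower. The 6 with the smallest adjusted p were Aurkb (−1.92, SE 0.31), Cdca3 (−1.77, SE 0.28) and Mki67 (−1.58, SE 0.24), each at adjusted p = 0.0437, and Ube2c (−1.79, SE 0.31), Cdk1 (−1.70, SE 0.30) and Aurka (−1.61, SE 0.28), each at adjusted p = 0.0464. Ccnb2 (−1.48) and Kif23 (−1.61) were the other two. The median over the 46 was −1.45. For the splenic minus de novo contrast the median was −1.35. At an unadjusted p under 0.05, 40 of the 46 had a lower value, as had 326 of all 13058 genes. Yet edgeR called 0 of the 46 (smallest adjusted p 0.145) and 0.00766% of all genes. The de novo minus pre-Treg contrast called 0 of 46, where 0.0842% of all genes were called. At an unadjusted p under 0.05 it had 0 of the 46 and 1328 of the 13058.

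These interaction calls did not hold across libraries. How many of all genes were called in the alternative fits below is not given, so their counts are not set against other genes. The splenic minus pre-Treg count of 8 was 0 when wild-type pre-Treg replicate 1 or 2, knockout pre-Treg replicate 3, splenic wild-type replicate 1 or 2, or splenic knockout replicate 2 was left out. It was 23 and 30 without knockout pre-Treg replicate 1 or 2, 26 without splenic knockout replicate 1, and 30 without the low-count filter. The joint count of 2 ranged from 0 to 29 over the libraries left out and was 0 with limma-voom. The splenic minus de novo count of 0 was 18 without splenic knockout replicate 1.

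Between stages the mitosis genes fell from pre-Treg to de novo Treg in both genotypes, and from de novo to splenic Tregs in the knockout. Stage coincides with count table, and spleen with tissue, so these cannot be told apart. Markers of other cells moved with stage. The 10 immature thymocyte markers summed to 468 to 1259 CPM in the pre-Treg libraries, 241 to 284 CPM in de novo and 153 to 176 CPM in splenic Tregs. Among them Dntt, which encodes the terminal transferase of immature lymphocytes, ranged over 73.8 to 731 CPM in pre-Tregs, 25.0 to 51.5 CPM in de novo Tregs and 1.09 to 2.18 CPM in splenic Tregs. The B cell and plasma cell markers summed to 9.20 to 33.1, 32.9 to 40.8 and 42.9 to 102 CPM in the same order. The part of these cells in the stage differences was not tested. The 4 comparisons share groups and are set side by side. For fits with a library left out, the share of all genes called is not given. De novo against pre-Treg, 39 of 46 genes fell in wild type (14.7% of all genes were called lower) and 44 fell in the knockout (17%), with medians of −1.40 and −1.43. In the knockout 1 gene rose (15.4% of all genes were called higher), Pttg1, at 0.49 (SE 0.15, adjusted p = 0.0217). Mki67 had −1.36 (SE 0.18) in wild type and −1.66 (SE 0.17) in the knockout, and Cdk1 −1.65 (SE 0.22) and −1.81 (SE 0.21). Cdc20 (−0.66, adjusted p = 0.0841) and Plk1 (−0.68, adjusted p = 0.0987) were not called in wild type. Without de novo wild-type replicate 2 the wild-type count was 23.

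Splenic against de novo, 0 of 46 genes were called in wild type (7.45% of all genes were), with a median of 0.18. At an unadjusted p under 0.05, 5 were higher, as were 1398 of all 13058 genes, which is a similar share. In the knockout 41 fell (6.39% of all genes were called lower), with a median of −1.20. The 5 not called in the knockout were Cenpa, Racgap1, Incenp, Smc4 and Pttg1. Mki67 had 0.38 (SE 0.17, adjusted p = 0.224) in wild type and −0.90 (SE 0.18, adjusted p = 0.00521) in the knockout, and Top2a −0.077 (SE 0.30) and −1.34 (SE 0.30, adjusted p = 0.0116). Birc5 had 0.21 and −1.19, and Ccnb1 0.29 and −1.26. The knockout count of 41 was 21 and 19 without de novo knockout replicate 1 or 2, and 15 without splenic knockout replicate 2. The share of all genes called in the fits that left out a library is not given. The difference between a gene's wild-type and knockout values is the splenic minus de novo interaction given above. For it 0 of the 46 genes were called.

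**Figure D5:**
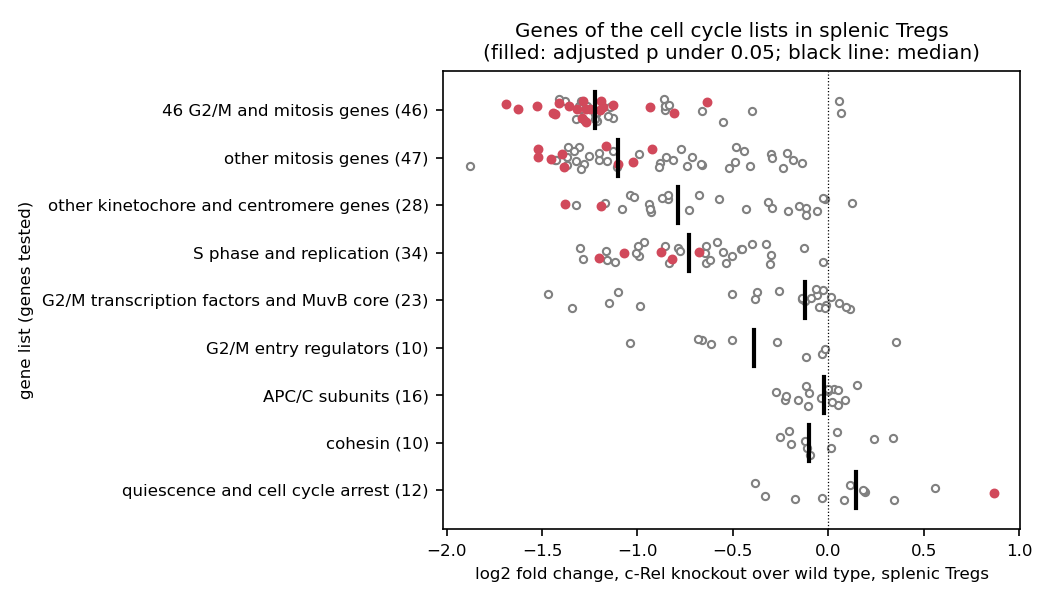
Log2 fold change of knockout over wild type in splenic Tregs for each gene (points, filled at adjusted p under 0.05) of the 46 mitosis genes and 8 further cell cycle lists (rows), with the list median as a black line. The medians of the further lists run from −1.10 for other mitosis genes to 0.15 for quiescence genes.

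Other genes of the cell cycle placed the mitosis genes in context, in splenic Tregs and by counts alone. The lists, too, were chosen with earlier results of these data known. Of all genes tested there, 0.758% were called lower and 0.612% higher, and 49.9% had negative values. Of 47 other mitosis genes 9 fell and 0 rose, all 47 had negative values, and the median was −1.10. Cep55, needed for the final cut between daughter cells, was at 16.7 and 17.4 CPM in wild type and 6.12 and 5.75 CPM in the knockout (−1.52, SE 0.16, adjusted p = 0.0119). Kif22 (−1.03, SE 0.13), Cks1b, a CDK-binding subunit (−1.16, SE 0.15), and Ckap2 (−1.45, SE 0.20) also fell. Of 28 other kinetochore and centromere genes 2 fell, Cenph (−1.38) and Spc24 (−1.19), with a median of −0.79. The 34 S phase and replication genes had 5 called lower, all 34 values negative and a median of −0.73. Among them were Tk1, thymidine kinase (−0.88, SE 0.14, adjusted p = 0.0345), Rfc5 (−0.68), Tyms, thymidylate synthase (−0.82), and Gins1 (−1.20). The medians of the remaining lists lay nearer to 0, and differences between lists were not tested. The 16 subunits and partners of the anaphase-promoting complex had 0 called and a median of −0.021, the 10 cohesin genes 0 and −0.10, and the 10 regulators of G2/M entry 0 and −0.39. Of 12 quiescence and arrest genes 1 rose, Txnip, at 701 and 535 against 1132 and 1120 CPM (0.87, SE 0.13, adjusted p = 0.0298), with a list median of 0.15.

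The transcription factors that act on mitosis promoters, and the MuvB core, had 0 of 23 genes called in splenic Tregs and a median of −0.12. Of the 23, 19 had negative values (49.9% of all genes did). At an unadjusted p under 0.05, 9 were lower (7.04% of all genes) and 0 higher. Foxm1 read 29.9 and 36.6 CPM in wild type and 19.4 and 11.6 CPM in the knockout (−1.10, SE 0.24, adjusted p = 0.0731). Mybl2, which encodes B-MYB, read 17.6 and 21.5 against 12.1 and 5.43 CPM (−1.15, SE 0.33, adjusted p = 0.159), and E2f8, a repressing E2F, 8.79 and 11.0 against 4.53 and 2.57 CPM (−1.47, SE 0.30, adjusted p = 0.0612). These 3 did not overlap between genotypes. Lin9 (−0.12) and Lin54 (−0.012), of the MuvB core, and E2f4 (−0.091), of DREAM, had values near 0. Rbl2, which encodes p130, the pocket protein of DREAM, was at 227 and 234 against 202 and 152 CPM (−0.38, SE 0.14, adjusted p = 0.275). In de novo Tregs Rbl2 fell, from 256 and 247 CPM to 173 and 186 CPM (−0.49, SE 0.077, adjusted p = 0.00305), and over all stages as well (−0.47, SE 0.10, adjusted p = 0.0461). In pre-Tregs it was at 193 and 184 against 133, 101 and 158 CPM (−0.52, SE 0.21, adjusted p = 0.72). In all 3 stages every knockout library was below every wild-type library for Rbl2. Of the 180 genes of the 8 further lists, 7 were called in de novo Tregs (3.89%), a smaller share than the 6.46% of all genes there. Besides Rbl2, Kif22 (0.43), Ccne1, the cyclin E1 gene (0.57), and Rrm2, a subunit of ribonucleotide reductase (0.37), rose, while Melk (−0.62), Gadd45g (−0.53) and Cdc25b (−0.46) fell. In pre-Tregs 0 genes of these lists were called. Of 34 S phase genes 31 had positive values (53.5% of all genes did), with a median of 0.37. At an unadjusted p under 0.05, 13 of them were higher (3.61% of all genes).

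Counting can mix some of these genes with their neighbours. On GRCm38, 8 of the 46 share exon bases with a protein-coding gene on the opposite strand, and whether the count used strand is not given in the sources used here. The shares of the gene's exon bases were 33.2% for Kif20a with Cdc23, 22.8% for Ube2c with Tnnc2, 15.1% for Kif4 with Pdzd11, 13.4% for Ncapg with Lcorl and 12.5% for Ccna2 with Exosc9. They were 11.1% for Prc1 with Rccd1, 4.24% for Nusap1 with Oip5 and 2.84% for Cdc20 with Elovl1. How many reads came from the neighbour was not measured, so the values of these 8 genes are uncertain. The 46 genes lie on 17 chromosomes.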

How the data were processed

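RNA was measured in 13 sequencing libraries of magnetically enriched and sorted CD4 T cells. The authors deposited whole-number read counts per gene, not normalized. Per the submitters' processing notes, the tools were STAR 2.5.2 and featureCounts (Subread 1.5.2), with Picard 2.9.0, FastQC, MultiQC and limma, on GRCm38. Annotation release and strand setting: not given in the sources used here. The pre-Treg table lists 47729 genes and each other table lists 22048. Sample titles gave the groups and replicate numbers.

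Genotype was tested within each stage with edgeR 4.0.16 (R 4.3.3): TMM scaling, the quasi-likelihood F-test, and filterByExpr at its min.count of 10 and min.total.count of 15. Interactions, stage comparisons and the fit over all stages used the 13 libraries and the genes in all 3 tables. Adjusted p is Benjamini-Hochberg over all genes tested, and called means adjusted p under 0.05. The SE is the log2 fold change divided by the square root of F. CPM uses TMM sizes over the 13 libraries, so values are on 1 scale, and log2 CPM has a prior count of 2; overlap between libraries was counted on CPM scaled within the stage. Library totals of 13656304 to 35114430 counts put 3 counts at 0.0854 to 0.22 CPM, a limit that covers counting error only. The fits were tested on simulated data.

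The members and gene lists were chosen with earlier results of these data known. Every member is accounted for by role. Library values are given for Mki67, Top2a, Cdk1, Ccnb1, Plk1, Aurkb, Cdc20 and Birc5, and for up to 8 further called members by adjusted p in each genotype comparison. Up to 6 called members were named for the interaction. From each other list up to 4 called genes were named, and Foxm1, Mybl2, Lin9, Lin54, E2f4, Rbl2 and E2f8 whatever their p. Other members with library values (Bub1b, Ttk, Incenp, Pttg1, Smc2, Smc4, Kif11) were chosen after their values were seen. Alternatives were DESeq2 1.42.0, limma-voom (limma 3.58.1), other scaling, no filter, shared spread, blocks by replicate number, a prior count of 0.5, and each library left out. Promoters are from RefSeq on GRCm38.p6.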

Additional observations from a re-analysis of the deposited data

Results flagged for a closer look

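In 10 results the genotype effect differed between stages by a test of the difference itself. In the joint interaction test these were Mki67 (adjusted p = 0.0423) and Cdca3 (adjusted p = 0.0477). In the splenic minus pre-Treg contrast they were Aurkb (−1.92), Cdca3 (−1.77), Mki67 (−1.58), Ube2c (−1.79), Cdk1 (−1.70), Aurka (−1.61), Ccnb2 (−1.48) and Kif23 (−1.61), given as log2 differences of the genotype effects. All 8 genes had a negative log2 fold change in splenic Tregs and a positive one in pre-Tregs. Only the splenic value was called, and the calls of the contrast were lost when any of 6 libraries was left out. No group holds the 4 libraries that a search for outlying libraries needs.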

How the results depend on the processing

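All 46 genes passed the low-count filter in every fit. In splenic Tregs the 20 calls became 40 with DESeq2, 41 without the low-count filter and 38 with a replicate block, and 32 to 44 with 1 library left out. The cause was not tested. The share of all genes called is not given for these fits or for the other counts below. Of the 20 genes, 15 were called in all 12 alternatives; Plk1, Spc25 and Cdc20 were called in 11, Ndc80 in 10 and Cenpa in 9. In 4 of the 12, 1 group holds a lone library, assumed to vary like the other group. In the 8 alternatives with every library, the same 15 genes were called in 8 and these 5 in 7. The replicate numbers did not pair the samples: the correlation of the deviations of same-numbered libraries was −0.168 and −0.158 for pre-Tregs, −0.0112 for de novo and −0.113 for splenic cells. A crossed replicate block, chosen after seeing the data, gave 43 calls. In pre-Tregs and over all stages 0 members were called under every alternative run, and in de novo Tregs 0 to 3 with 1 library left out. For the interactions, the splenic minus pre-Treg count of 8 was 30 without the filter, 0 with the replicate block and 0 to 30 with 1 library left out. The joint count of 2 was 27 without the filter, 0 with limma-voom, 0 with the replicate block and 0 to 29 with 1 library left out. The splenic minus de novo count of 0 was 12 without the filter and 0 to 18 with 1 library left out, and the de novo minus pre-Treg count 0 to 1. For the stage comparisons the counts in either direction with 1 library left out were 23 to 38 and 37 to 46 for de novo against pre-Treg in wild type and knockout, and 15 to 40 for splenic against de novo in the knockout. The set mean difference with 1 library left out was 0.057 to 0.37 in pre-Tregs, −0.028 to 0.37 in de novo Tregs and −1.48 to −0.82 in splenic Tregs, and its other settings changed no direction. Log2 fold changes that were not called changed sign for some named genes with 1 library left out. In pre-Tregs the range was −0.032 to 0.39 for Top2a and −0.080 to 0.28 for Ccnb1. In de novo Tregs it was −0.013 to 0.19 for Mki67, −0.0821 to 0.396 for Top2a, −0.061 to 0.29 for Cdk1, −0.19 to 0.30 for Ccnb1, −0.0816 to 0.452 for Plk1, −0.00779 to 0.424 for Birc5 and −0.12 to 0.46 for Cdc20. For splenic Pttg1 it was −0.14 to 0.26. Over all stages it was −0.31 to 0.12 for Plk1, −0.35 to 0.054 for Aurkb, −0.30 to 0.076 for Birc5 and −0.30 to 0.079 for Cdc20.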

Other observations

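Smc4 and Pttg1 stood apart from the other mitosis genes across stages as well as genotypes. Pttg1 was at 56.7 and 57.0 CPM in wild-type pre-Tregs and 67.7 and 76.5 CPM in wild-type de novo Tregs (log2 fold change 0.34, SE 0.16, adjusted p = 0.127). The median of the 46 genes in that comparison was −1.40. Smc4 went from 961 and 1040 CPM to 838 and 877 CPM in wild type (−0.23, SE 0.21, adjusted p = 0.431), and from 861, 472 and 580 CPM to 833 and 847 CPM in the knockout (0.39, SE 0.19, adjusted p = 0.139).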
